A study of Mus musculus with 6 samples.

Results

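The transcripts described here are those of 35 enzymes, regulators and transporters of glycolysis, lactate handling and glycogen metabolism, read in the left ventricle of Akt2 knockout and wild type mice. A gene was a member if it stood on a list of this pathway, and it was read through the array probe sets whose platform annotation names that gene and no other. Of the 35 genes, 32 had such a probe set, 65 probe sets in all among the 45101 on the array. Gpi1, Pfkfb1 and Eno1 had none and were not analysed here. Each gene was represented by its brightest probe set over all 6 arrays. Of the 32 genes, 29 were bright enough to be tested, among 11075 genes tested in all. Aldoc and Eno2 were too dim, with means of 6.52 and 5.92 on the scale log2(signal + 21.7) against a minimum of 6.87, while Slc16a3 at 7.12 and Pfkfb3 at 7.33 were the members just above it. Gapdh was read only by control probe sets of the array, which were left out of that test and come from a fit of their own.

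The wild type group held 3 left ventricle samples and the knockout group 3, all from male C57BL/6 mice 12 to 16 weeks old. The knockouts (akt2-/-) carried a targeted disruption of Akt2 and were the product of more than 7 backcrosses to C57BL/6, and no treatment is given for either group. Each sample went to 1 array. The labels are silent on whether each array stands for its own mouse, so the tests cover only the scatter among these samples, which may be technical. In bulk tissue, fewer cells of a type and less RNA per cell cannot be told apart.

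Glycolysis splits glucose 6-phosphate into pyruvate in the cytosol, and lactate dehydrogenase converts pyruvate to lactate and back. Cardiac muscle runs mainly on fatty acids, takes up and burns lactate, and keeps glycogen as a local store of glucose. Akt, activated by insulin, is known to act on this pathway largely through phosphorylation: it phosphorylates the cardiac isoform of 6-phosphofructo-2-kinase (Pfkfb2), and it inhibits glycogen synthase kinase 3, which relieves glycogen synthase (Gys1) of inhibition. Arrays read transcript levels and carry no information on phosphorylation.

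Akt2 itself had signals of 477.8, 394.5 and 255.4 in the knockout arrays 1, 2 and 3, against 2363, 2561 and 2505 in the wild type arrays. Control probe sets set the arrays numbered 1 apart in both genotypes. The median signal of the 18S ribosomal RNA probe sets was 82330 and 57275 in these arrays and between 152.7 and 446.7 in the other 4, and that of the poly-A spike-in controls was 51.0 and 83.0 against 628.6 to 1015. These sets of arrays are called batches here, although the labels name no batch, and differences are also given within the first pair (the arrays numbered 1) and within the other pairs (the arrays numbered 2 and 3). All 10 cardiomyocyte markers were bright enough to be tested, and 9 of them had lower means in the knockout. Their summed signal, like that of many members below, was lower in the knockout in the first pair (905860 against 1514700) and higher in the others (576402 and 639093 against 473972 and 607776 in the wild type). Of 13 skeletal muscle markers 9, among them Myh1, Myh2 and Myh4, were too dim to be tested. Markers of macrophages (7 of 7) and of endothelium (7 of 7) had lower mean log2 values in the knockout. The genotypes did not overlap in 0 of the macrophage and 3 of the endothelium markers, against 7.46% of all tested genes. Their summed signals ranged from 10404 to 18438 in the knockout and from 14328 to 20021 in the wild type for macrophages, and from 9289 to 11907 against 10201 to 13401 for endothelium. Fibroblast markers had higher means in the knockout in 6 of 8 genes, with no overlap in 1 of the 8. Atrial markers had higher means in 4 of 4 and smooth muscle markers in 2 of 3 tested. The 5 smooth muscle markers nevertheless summed to 8709, 5376 and 5177 in the knockout arrays, against 9847, 5671 and 6286 in the wild type arrays. The 1 tested red cell marker was lower and the 1 tested adipocyte marker higher.

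No gene of the pathway passed the test for a difference between the genotypes. The disrupted gene Akt2 did not pass it either, with a log2 difference of -2.69. Its limma adjusted p was 0.0638, and 0.0963 with the batch block, so not passing does not show that a member is unchanged. In limma without a covariate, 0 of 29 members had a Benjamini-Hochberg adjusted p under 0.05 (0% of all 11075 genes), and 0 had an unadjusted p under 0.05, against 2.17% of all genes. With the batch as a block, 0 members passed after adjustment against 0.00903% of all genes, and 1, Phkb, had an unadjusted p under 0.05, against 8.32%. With the replicate number as a block it was again Phkb, against 5.99% of all genes. Within the other pairs alone, 3 members (Gys1, Pygl and Slc16a3) had an unadjusted p under 0.05, against 9.84%, and 0 passed after adjustment.

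The median log2 difference, knockout minus wild type, was 0.011 over the members and 0.015 over all genes, and single members ranged from -0.31 for Ugp2 to 0.55 for Phkb. In 1 member, Ugp2, every knockout array lay below every wild type array, and 7.46% of all genes had no overlap in either direction. Both batches separated the genotypes the same way in 8 members (Pfkfb4, Pfkl, Pfkp, Phkb, Pygb, Pygl, Slc16a1 and Ugp2), against 21.7% of all genes. The members were higher in the knockout in 16 cases, or 55.2% against 53.3% of all genes, and lower in 13. That split was 20 to 9 after quantile normalization, where 54.4% of all genes were higher. It was 25 to 4 when the arrays were scaled to a common median, a scaling under which 72% of all genes were higher and their median was 0.12.

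**Figure D1:**
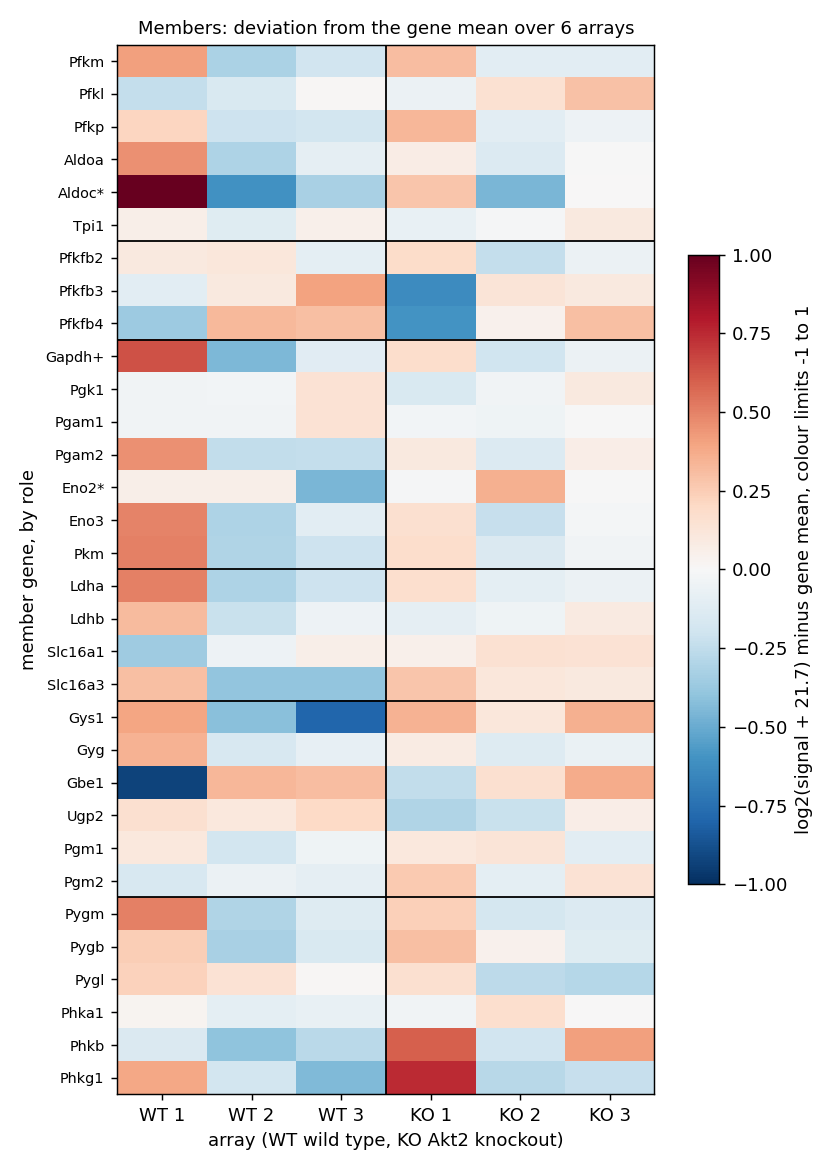
Deviation of each of the 32 measured members from its own mean over the 6 arrays, on the scale log2(signal + 21.7), with the wild type arrays (WT) on the left and the knockout arrays (KO) on the right and the genes grouped by role; colours stop at -1 and 1, an asterisk marks a gene too dim to be tested and a plus sign a control probe set. Wild type array 1 is the reddest for Pfkm, Aldoa, Gapdh, Pgam2, Eno3, Pkm, Ldha and Ldhb (Gapdh 101642 against 47931 and 60552 in the other wild type arrays), and each wild type array of Ugp2 is redder than each of its knockout arrays.

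In the first stage of glycolysis, from hexose to triose phosphate, 4 of the 5 tested genes had higher means in the knockout and none passed the test. Phosphofructokinase commits fructose 6-phosphate to glycolysis, and Pfkm encodes its muscle subunit. Pfkm had signals of 30716, 18478 and 20218 in wild type arrays 1, 2 and 3 and of 28511, 21465 and 21434 in the knockout arrays. The arrays numbered 1 were the highest in both genotypes and the groups overlapped. The log2 difference of Pfkm was 0.064 (limma 95% interval -0.52 to 0.65, and -0.21 to 0.34 with the batch block).

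Pfkl, the liver-type subunit, had 2646, 2807 and 3152 in the wild type and 3008, 3474 and 3835 in the knockout. It was higher in the knockout in both batches, by 0.18 in the first pair and by 0.29 in the others, but knockout 1 lay below wild type 3. Its log2 difference was 0.26 (SE 0.172, limma 95% interval -0.15 to 0.66). The 2 other Pfkl probe sets gave 0.079 and -0.022, so its probe sets did not share a direction.

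Pfkp, the platelet-type subunit, differed by 0.12 (SE 0.206) and by 0.11 and 0.12 within the batches. Its second tested probe set gave the opposite sign, -0.15 (SE 0.268), with -0.45 in the first pair. Aldolase cleaves fructose 1,6-bisphosphate, and its muscle form Aldoa gave -0.045 (SE 0.229), -0.39 in the first pair and 0.13 in the others. All 5 Aldoa probe sets are of a type (suffix x) that can also bind related transcripts, as are the brightest of Tpi1 and Ldhb. Triose phosphate isomerase, Tpi1, gave 0.011 (SE 0.154), and its other probe sets gave -0.085 and 0.10. Aldoc, the brain form of aldolase, ranged over signals of 38.4 to 174.5 in the wild type and 45.1 to 89.2 in the knockout.

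The bifunctional enzymes that make and remove fructose 2,6-bisphosphate, the activator of phosphofructokinase, had lower mean values in the knockout in all 3 tested genes, and none passed the test. Pfkfb2, the cardiac isoform that Akt phosphorylates, had 963.7, 975.1 and 839.7 in the wild type and 1024, 762.1 and 865.0 in the knockout. The groups overlapped, with the highest and the lowest value both in the knockout. The log2 difference of Pfkfb2 was -0.073 (SE 0.177, limma 95% interval -0.49 to 0.35), 0.086 in the first pair and -0.15 in the others, and it was 0.029 under median scaling. Its 3 other probe sets were dimmer and gave -0.34, -0.16 and -0.23. Pfkfb3, an inducible isoform, gave -0.26 (SE 0.262), with -0.53 and -0.13 within the batches. Pfkfb4 gave -0.17 (SE 0.302), with -0.24 and -0.14.

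In the second stage of glycolysis, from triose phosphate to pyruvate, Gapdh, Pgam2, Eno3 and Pkm were lower in the knockout in the first pair and higher in the others, and no tested gene passed the test. Gapdh, glyceraldehyde 3-phosphate dehydrogenase, had 101642, 47931 and 60552 in the wild type and 73841, 56997 and 62813 in the knockout. Wild type arrays held both the highest and the lowest value. Its log2 difference was -0.053 (SE 0.295), -0.46 in the first pair and 0.15 in the others. The pooled value was 0.017 after quantile normalization and 0.053 under median scaling.

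Pgam2, the muscle phosphoglycerate mutase, gave 0.017 pooled, -0.36 in the first pair and 0.20 in the others. Eno3, the muscle enolase, gave -0.057, -0.33 and 0.079 in the same order, and pyruvate kinase Pkm gave -0.00084, -0.33 and 0.16. In these genes the direction within a batch was that of Gapdh. Skeletal muscle markers had lower means in the knockout in 3 of the 4 tested genes. Their summed signal was nevertheless 6447 to 8509 in the knockout and 4497 to 5697 in the wild type, and that of Myl1 among them had means of 6268 and 3589. Their part in the values of Pgam2 and Eno3 was not tested.

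Pgk1 and Pgam1 were lower in the knockout in the other pairs and near 0 over all arrays. Pgk1, phosphoglycerate kinase, gave -0.055 (SE 0.159), with -0.12 and -0.025 within the batches. Pgam1, the mutase form found in most tissues, gave -0.049 (SE 0.15), with 0.0038 and -0.075. Eno2, the neuronal enolase, was too dim to be tested, with signals of 22.5 to 55.8 over the 6 arrays.

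**Figure D2:**
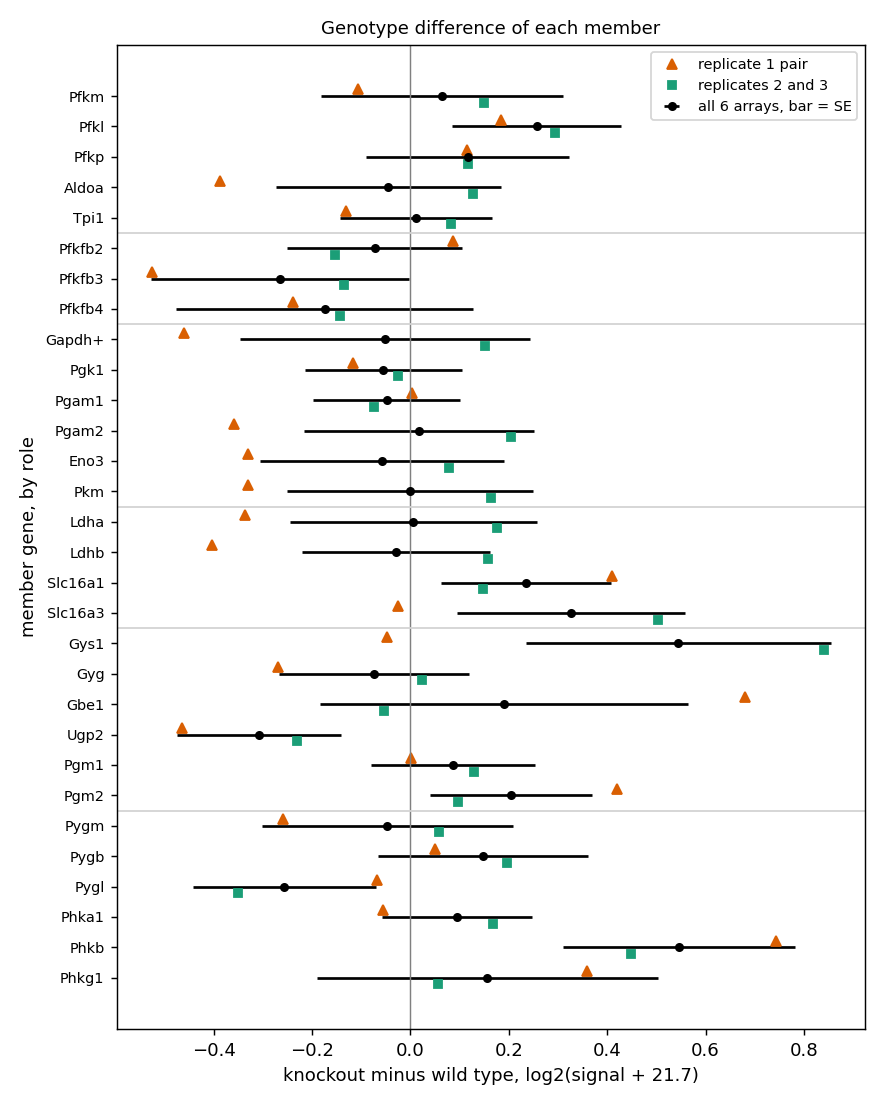
Knockout minus wild type difference of the 29 tested members and Gapdh (plus sign) on the scale log2(signal + 21.7): black points are all 6 arrays with bars of 1 SE from limma, triangles the arrays numbered 1 and squares those numbered 2 and 3. Triangles and squares lie on opposite sides of 0 for most enzymes from aldolase to lactate dehydrogenase, and on the same side for Ugp2 (-0.46 and -0.23) and Phkb (0.74 and 0.45).

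Lactate dehydrogenase had the same pattern. Ldha encodes the subunit that prevails in skeletal muscle and Ldhb the one that prevails in heart. Ldha had 30295, 17196 and 18469 in the wild type and 24003, 19868 and 20416 in the knockout, a log2 difference of 0.0057 (SE 0.251, limma 95% interval -0.59 to 0.60). The knockout was the lower array of the first pair (-0.34), and both other knockout arrays were above both other wild type arrays (0.18). Ldhb had 49546, 34227 and 38561 in the wild type and 37472, 38679 and 42487 in the knockout (-0.029, SE 0.191). Its values within the batches were -0.40 and 0.16, and all 4 Ldhb probe sets had these signs. Its pooled difference was 0.022 after quantile normalization and 0.077 under median scaling.

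The monocarboxylate transporters, which carry lactate across the plasma membrane, had higher means in the knockout and did not pass the test. Slc16a1 (MCT1), the form through which heart muscle takes up lactate, had 10148, 12513 and 13520 in the wild type and 13496, 14453 and 14378 in the knockout. The groups overlapped only through knockout 1, which lay just below wild type 3. The log2 difference was 0.24 (SE 0.173, limma 95% interval -0.17 to 0.65), 0.41 in the first pair and 0.15 in the others. It was 0.12 when wild type replicate 1 was left out. The second, much dimmer probe set of Slc16a1 gave 0.72 (SE 0.486), and the mean of both gave 0.48. This dimmer probe set had 146.7, 26 and 117.9 in the wild type and 157.5, 188.6 and 110.2 in the knockout.

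Slc16a3 (MCT4), the exporter of glycolytic cells, had 149.7, 83.8 and 84.0 in the wild type and 146.7, 128.8 and 127.1 in the knockout. Both arrays numbered 1 were above the other 4. The difference was 0.33 (SE 0.232), -0.025 in the first pair and 0.50 in the others, where limma gave an adjusted p of 0.384. Leaving out wild type replicate 1 gave 0.56, and leaving out wild type replicate 2 or 3 gave 0.21 in either case. Slc16a3 was the dimmest tested member.

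Glycogen synthesis held the only tested member whose genotypes did not overlap. Ugp2 encodes UDP-glucose pyrophosphorylase, which makes the UDP-glucose from which glycogen is built. Its brightest probe set had 18504, 17770 and 19006 in the wild type (mean 18426 ± 622, SD, n = 3) and 13403, 14189 and 17289 in the knockout (14960 ± 2055, SD, n = 3). All 3 knockout arrays lay below all 3 wild type arrays. The log2 difference was -0.31 (SE 0.167, limma 95% interval -0.71 to 0.089), -0.46 in the first pair and -0.23 in the others. The limma adjusted p was 1.00, and 0.593 with the batch block. A separation on the lower side was found for 3.56% of all genes, and the arrays of Ugp2 overlapped under median scaling (log2 difference -0.20) and when the mean of all its probe sets was taken (-0.36).

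The other probe sets of Ugp2 had the same direction. The 5 probe sets gave log2 differences from -0.50 to -0.26, and in each of them the knockout was the lower array of the first pair and both other knockout arrays were below both other wild type arrays. Such a separation was found for 10.7% of the 22519 tested probe sets, and probe sets of 1 gene read the same RNA samples, so they are not independent. The third brightest had 13667, 10525 and 11216 in the wild type against 9531, 7758 and 9475 in the knockout, with no overlap (-0.40, SE 0.194). Among all 56 tested probe sets of the members, 3 had no overlap (this one, the brightest of Ugp2 and 1 of Phka1), against 7.3% of all probe sets. The dimmest of Ugp2 had 2374, 4448 and 4161 against 1508, 3254 and 3161 (-0.50, SE 0.385), and its arrays numbered 1 were the lowest of their genotype. Its limma 95% interval was -1.41 to 0.42, and -0.79 to -0.21 with the batch block, where the limma adjusted p was 0.625.

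The 250 bases before the most upstream RefSeq start of Ugp2, at chr11:21371268-21371517 on the minus strand of GRCm38.p6, are shown because this gene separated the genotypes. Capitals mark ACGTG and GCGTG, the core letters to which hypoxia-inducible factor binds, on either strand (CACGT and CACGC on the other), and the window held 6 such matches.
Ugp2: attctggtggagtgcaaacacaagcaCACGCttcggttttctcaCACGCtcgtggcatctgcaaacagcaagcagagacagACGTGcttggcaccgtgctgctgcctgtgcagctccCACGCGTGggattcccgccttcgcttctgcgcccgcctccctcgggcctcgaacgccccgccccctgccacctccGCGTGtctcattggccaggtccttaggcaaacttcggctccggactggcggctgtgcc

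Gys1 encodes muscle glycogen synthase, which extends the glycogen chain. Its brightest probe set had 1812, 1021 and 781.8 in the wild type and 1752, 1486 and 1762 in the knockout. The arrays of the first pair were close (-0.048), and both other knockout arrays were above both other wild type arrays (0.84, SE 0.175, limma adjusted p 0.384). Over all arrays the difference was 0.54 (SE 0.31, limma 95% interval -0.19 to 1.28). Leaving out wild type replicate 1 gave 0.88, and leaving out wild type replicate 3 gave 0.28. The second Gys1 probe set had 1647, 458.3 and 552.6 in the wild type against 758.5, 557.2 and 363.9 in the knockout. It gave the opposite sign, -0.47 (SE 0.511), and the mean of both probe sets differed by 0.039. No direction is therefore stated for Gys1.

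Gbe1, the branching enzyme, had 540.4, 1322 and 1303 in the wild type and 878.5, 1170 and 1363 in the knockout. The arrays numbered 1 were the lowest of each genotype. The difference was 0.19 (SE 0.374), 0.68 in the first pair and -0.054 in the others, and -0.23 when wild type replicate 1 was left out. Gyg, glycogenin, which primes the chain, gave -0.074 (SE 0.193), through a probe set of a type (suffix s) that several transcripts share. The phosphoglucomutases, which convert glucose 6-phosphate and glucose 1-phosphate into each other, gave 0.086 (SE 0.166) for Pgm1 and 0.20 (SE 0.165) for Pgm2. Pgm2 had 232.9, 252.0 and 246.5 in the wild type against 319.1, 245.0 and 293.1, and its groups overlapped through knockout 2.

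**Figure D3:**
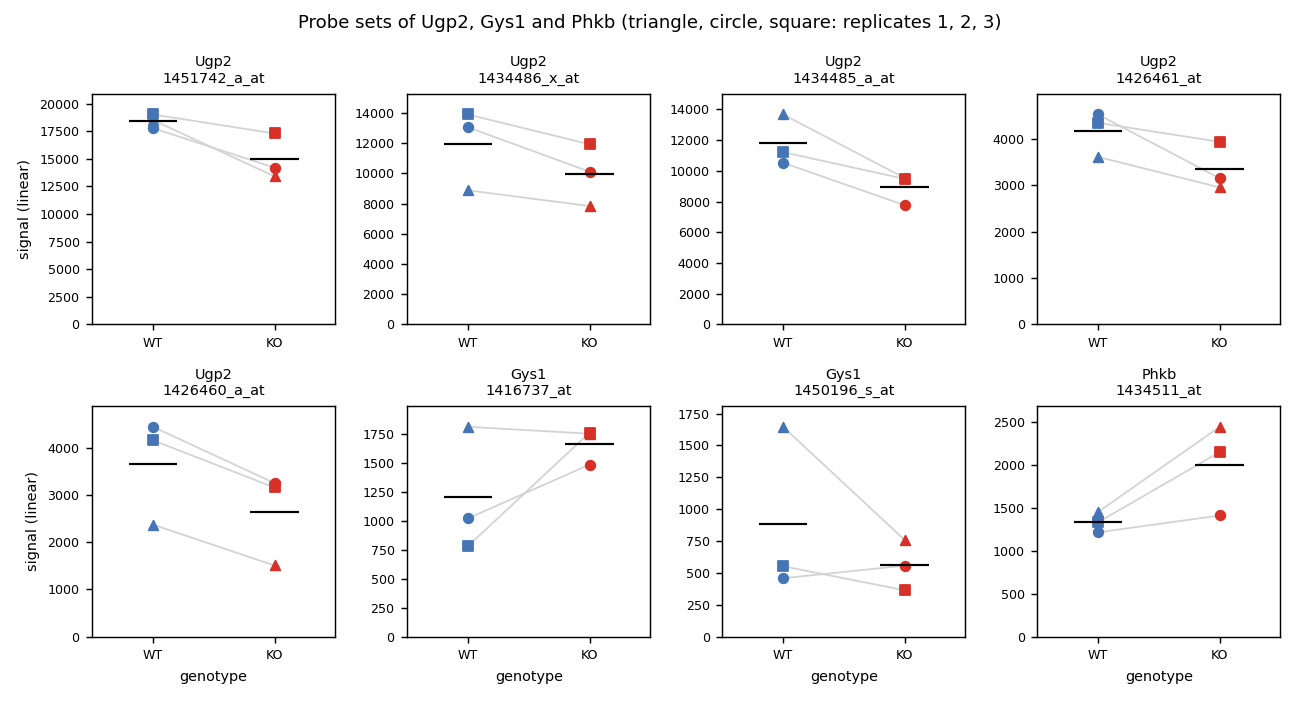
Linear signal of the 5 probe sets of Ugp2, the 2 of Gys1 and the 1 of Phkb in wild type (WT, blue) and knockout (KO, red) arrays, with axes from 0; grey lines join arrays of the same replicate number and black bars are means of 3. Every line slopes down from wild type to knockout in the Ugp2 panels, the means of the Gys1 panels differ in opposite directions, and every line slopes up for Phkb (1452, 1214 and 1332 against 2444, 1411 and 2150).

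Glycogen breakdown held the member with the lowest unadjusted p. Phosphorylase kinase activates glycogen phosphorylase, and Phkb encodes its regulatory beta subunit. The single Phkb probe set had 1452, 1214 and 1332 in the wild type (1333 ± 119, SD, n = 3) and 2444, 1411 and 2150 in the knockout (2001 ± 532, SD, n = 3). Knockouts 1 and 3 were above every wild type array and knockout 2 lay just below wild type 1. The log2 difference was 0.55 (SE 0.237, limma 95% interval -0.016 to 1.11), 0.74 in the first pair and 0.45 in the others. The limma adjusted p without a block was 0.9999. With the batch block the interval was 0.093 to 1.00 and the limma adjusted p 0.586. The corresponding window of the Phkb promoter lies at chr8:85840738-85840987 on the plus strand of GRCm38.p6. It is shown for this member as the one with the lowest unadjusted p, with the same letters in capitals (1 match).
Phkb: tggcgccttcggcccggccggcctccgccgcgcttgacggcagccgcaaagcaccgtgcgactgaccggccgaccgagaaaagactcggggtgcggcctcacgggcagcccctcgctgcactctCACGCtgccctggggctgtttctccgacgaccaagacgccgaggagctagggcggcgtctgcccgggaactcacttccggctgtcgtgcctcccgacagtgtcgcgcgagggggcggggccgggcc

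The other subunits of phosphorylase kinase were closer to 0 than Phkb. Phka1, the muscle alpha subunit, gave 0.094 (SE 0.153), and its 3 probe sets had higher means in the knockout, by 0.081 to 0.25. The second brightest had no overlap, with 425.0, 500.4 and 515.9 in the wild type against 577.4, 518.5 and 631.9 in the knockout. Phkg1, the catalytic gamma subunit of muscle, gave 0.16 (SE 0.346) and its second probe set -0.15.

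Of the phosphorylases themselves, which release glucose 1-phosphate from glycogen, the muscle form Pygm had 21643, 12397 and 14002 in the wild type and 18084, 13570 and 13883 in the knockout. The groups overlapped. The difference was -0.047 (SE 0.255, limma 95% interval -0.65 to 0.56), -0.26 in the first pair and 0.059 in the others, and 0.059 under median scaling. Pygb, the brain form, which heart also expresses, gave 0.15 (SE 0.213) and was higher in the knockout in all 3 same-numbered pairs.

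Pygl, the liver form, had 277.5, 261.3 and 236.0 in the wild type against 263.8, 191.6 and 188.5 in the knockout. Its difference was -0.26 (SE 0.186), -0.068 in the first pair and -0.35 in the others (limma adjusted p 0.469). Knockout 1 lay above wild type 2 and wild type 3, so the groups overlapped. The macrophage markers given above also had lower means in the knockout. Their summed signal was lowest in the array numbered 1 of each genotype (14328 and 10404), where Pygl was highest. Their part in the Pygl value was not tested.

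Over the whole list, 5 members (Pfkl, Pfkp, Phkb, Pygb and Slc16a1) were higher in the knockout in all 3 same-numbered pairs, or 17.2% of the 29 against 15.9% of all genes. Pfkfb4, Pgk1, Pygl and Ugp2 were lower in all 3, or 13.8% against 14.1%. These shares were close to those of all genes.

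The batches differed in more members than the genotypes did. With genotype in the limma model, 10 of 29 members differed between the arrays numbered 1 and the other 4 at an adjusted p under 0.05, against 34% of all genes. Of these, 7 were higher in the arrays numbered 1 (Ldha, Pfkm, Pfkp, Phkg1, Pkm, Pygb and Pygm), against 18.9% of all genes, and 3 lower (Gbe1, Pfkfb3 and Pfkfb4), against 15.1%. The direction depends on the scaling: with arrays scaled to a common median, 0 were higher and 15 lower, and 62.1% of all genes differed. Before that scaling the median signal was 167.2 (wild type) and 134.3 (knockout) in the arrays numbered 1, and 88.4 to 91.2 in the other 4. With the signals as deposited, the log2 differences reached 0.85 for Phkg1 and -0.88 for Gbe1.

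A total of 13 members were lower in the knockout in the first pair and higher in the others, or 44.8% of the 29 against 24.7% of all genes, and 3 went the other way, or 10.3% against 25.3%. The summed signal of the cardiomyocyte markers had the former pattern, and its part in these values was not tested. The median of the members was -0.068 in the first pair and 0.12 in the others, against 0.012 and 0.0030 over all genes. Under median scaling the members' median in the first pair was 0.22, and 6 members were lower in the first pair and higher in the others. That scaling also moved the median of all genes over all arrays to 0.12. The count was 11 after quantile normalization and 12 to 15 under the other settings. The share of all genes with this pattern was not taken under these settings, so these counts have no background beside them. An interaction term tested whether the genotype difference itself differed between the batches. It passed after adjustment in 0 of 29 members, against 0.569% of all genes, and 6 members (Gbe1, Gys1, Ldha, Ldhb, Pgam2 and Slc16a3) had an unadjusted limma p under 0.05, or 20.7% against 20.5% of all genes. The lowest adjusted p was 0.164, for Gbe1. The first pair has 1 array a genotype, so this fit has few degrees of freedom, and an adjusted p above the threshold does not show that the batches are alike.

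**Figure D4:**
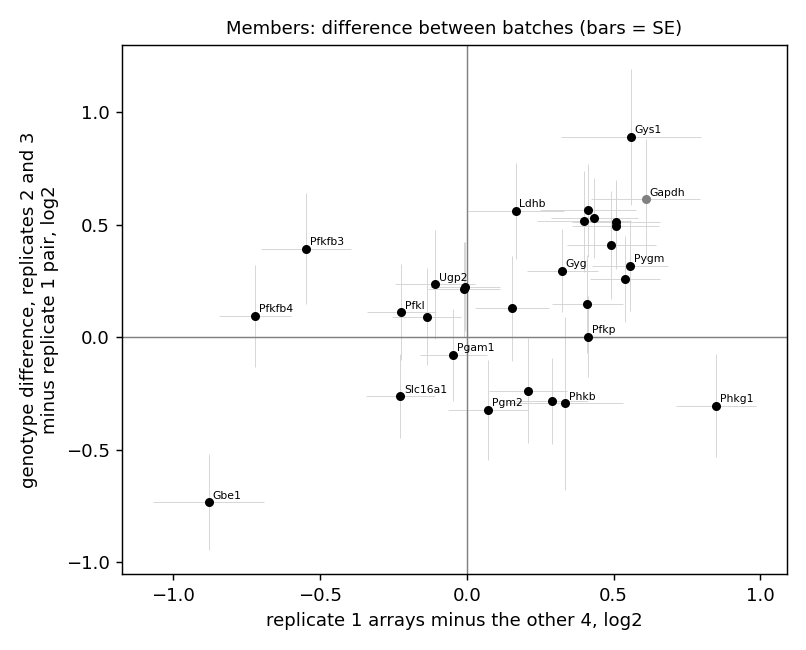
Difference between the arrays numbered 1 and the other 4 (horizontal) against the genotype difference in the arrays numbered 2 and 3 minus that in the arrays numbered 1 (vertical), both on the log2 scale with the signals as deposited, for the 29 tested members and Gapdh (grey), with bars of 1 SE from limma. The unlabelled points close to Gapdh and Pygm include Aldoa, Eno3, Pkm, Ldha, Pgam2 and Pfkm, and Gbe1 lies alone at the lower left (-0.88 and -0.73).

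Of the genes next to the members in the pathway, 62 were bright enough to be tested. None passed after adjustment in limma, with or without the batch block. Without a block 1 of 62 (Pklr) had an unadjusted p under 0.05, and with the batch block 9 of 62 did, against 2.17% and 8.32% of all genes. Among the latter were 4 of the 15 tested glycogen genes, 2 of the 8 for hexose entry and phosphorylation, 2 of the 13 regulators and 1 of the 7 remaining glycolysis isozymes. For lactate and pyruvate transport (4 tested), gluconeogenesis and shuttles (9) and the pentose phosphate pathway (6) there were 0.

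Stbd1, a protein that tethers glycogen to membranes, had 350.7, 574.2 and 554.5 in the wild type and 295.9, 378.0 and 333.8 in the knockout (log2 -0.50, SE 0.231, limma adjusted p 0.586 with the batch block). Within each batch the knockout arrays were the lower ones. Hk3, a hexokinase of blood cells, had 364.9, 145.7 and 197.9 against 141.3, 104.1 and 135.4 (-0.71, SE 0.319), with no overlap. Pklr, the pyruvate kinase of liver and red cells, had 222.6, 90.7 and 123.7 against 71.0, 68.6 and 83.0 (-0.73, SE 0.293), also with no overlap. Among the 62 genes 5 had no overlap, against 7.46% of all genes; the other 3 (Hif1a, Ppp1r3d and Slc2a8) had higher values in the knockout, with log2 differences of 0.36, 0.29 and 0.30. Hk3 and Pklr are dim and were highest in wild type array 1, where the macrophage markers had their lowest wild type sum (14328). Those markers had lower means in the knockout too, and the part of macrophages was not tested.

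Gaa, the lysosomal glucosidase that degrades glycogen, had 3167, 1216 and 1296 against 3448, 1720 and 1703 (0.33, SE 0.445). Phka2, the liver alpha subunit of phosphorylase kinase, had 778.1, 515.1 and 538.2 against 1072, 596.1 and 650.6 (0.31, SE 0.279). Egln3, an oxygen-sensing prolyl hydroxylase, had 1693, 2590 and 3063 against 2052, 3653 and 4197 (0.41, SE 0.338). In these 3 genes the knockout was higher within both batches, while the pooled groups overlapped. At the entry of the pathway, the glucose transporter Slc2a4 gave 0.24 and the hexokinases Hk1 and Hk2 gave -0.0083 and 0.22, none of which passed the test.

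Promoter windows of 250 bases before the most upstream start were found for all 35 members in the RefSeq set of GRCm38.p6 and searched on both strands. No other start was searched, and whether the heart uses the most upstream one was not tested. The letters ACGTG or GCGTG stood in 25 of 35 (71.4%), among them Ugp2, Phkb, Pfkl, Slc16a1, Slc16a3 and Ldha, against 38.6% of 27025 promoters of the same length. The members' windows were also richer in G and C, with a median of 58.4% against 52%. CACGTG, which holds ACGTG on both strands, stood in 3 members (8.57%, against 6.04% of all). The letters GTAAACA, a sequence that FoxO factors bind, stood in 0 of 35 windows against 3.06% of all promoters, which says only that these letters are not in these windows. The Ldha window, at chr7:46845554-46845803 on the plus strand, is given as one that holds CACGTG, and the Gys1 window, at chr7:45434589-45434838 on the plus strand, as one with none of these letters.
Ldha: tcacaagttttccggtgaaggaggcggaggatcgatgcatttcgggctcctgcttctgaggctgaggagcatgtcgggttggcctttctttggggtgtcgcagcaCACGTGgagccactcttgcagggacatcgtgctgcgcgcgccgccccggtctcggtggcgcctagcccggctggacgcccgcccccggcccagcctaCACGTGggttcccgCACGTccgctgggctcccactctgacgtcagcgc
Gys1: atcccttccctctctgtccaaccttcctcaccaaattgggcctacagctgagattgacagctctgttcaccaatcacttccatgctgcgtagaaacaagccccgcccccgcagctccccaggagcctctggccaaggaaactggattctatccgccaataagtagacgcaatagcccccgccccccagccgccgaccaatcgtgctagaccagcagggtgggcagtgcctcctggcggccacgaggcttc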

How the data were processed

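Left ventricle RNA of 3 wild type and 3 Akt2 knockout samples was hybridised to 1 Affymetrix mouse array each. The deposited values are intensities, 1 linear signal per probe set, made with MAS5 per the submitters' processing notes, which name no settings here. The trimmed mean was 500 on each array, so an array carries 1 scaling factor and keeps its own distribution of signals. The number of arrays limits the precision.

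Analyses used log2(signal + 21.7), with the 20th percentile of the deposited signals as pseudocount; this understates the fold changes of dim genes. Control probe sets (64) were left out. The test over genes also left out probe sets naming several genes (932) or unnamed here (9160). The fit over probe sets kept these where they were bright enough. The brightest probe set of each gene with a mean log2 value of at least 6.87, the median of all probe sets, entered limma 3.58.1 in R 4.3.3 (lmFit, eBayes), with Benjamini-Hochberg adjustment over 11075 genes and a threshold of 0.05. SE are moderated standard errors; those of further probe sets come from a fit over all 22519 tested probe sets. Gapdh comes from a fit that kept control probe sets of mouse genes. The fit was tested on simulated data.

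Same-numbered arrays deviated together from their genotype means, with correlations of 0.61, 0.45 and 0.39, so their numbers were used as a block, although no label explains the numbers. Knockout 2 with wild type 3 (0.44) and knockout 3 with wild type 2 (0.36) correlated about as much, so the values set the arrays numbered 1 apart and hardly tell numbers 2 and 3 from each other. The members and lists were chosen with earlier results of these data known. Values in every array are given for the 8 members with the lowest unadjusted p, those without overlap, the 4 with the lowest interaction p, and Pfkm, Pfkfb2, Gapdh, Ldha, Ldhb, Gys1, Pygm and Slc16a1. Further probe sets shown beside them were chosen after their values were seen. Of the other pathway genes, those with the 6 lowest unadjusted p in either fit are given so; for all 6 the lower p was that with the batch block.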

Additional observations from a re-analysis of the deposited data

How the results depend on the processing

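The count of members past the adjusted threshold was 0 in the planned limma fit and under each alternative run. The count with an unadjusted p under 0.05 was 0, but 1 with a pseudocount of 64, the stricter filter, quantile normalization, median scaling, the trended and robust variance estimate, the replicate block, the batch block and the mean of all probe sets (0.821% to 8.32% of all genes). It was 3 in the arrays numbered 2 and 3 alone, against 9.84% of all genes. With the batch block and the trended, robust variance together it was 5 (Gys1, Pfkl, Phkb, Slc16a1 and Ugp2), against 8.95%. Leaving out 1 array gave 0 to 2, the 2 being Gys1 and Slc16a3 without wild type replicate 1, against 5.51% of all genes. The replicate block, which pairs same-numbered arrays, changed no adjusted call.

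The count of members without overlap, 1, was 4 after quantile normalization (7.8% of all genes), 3 under median scaling (Gys1, Phkb and Slc16a3; 5.21%), 2 with the mean of all probe sets (Pgm1 and Slc16a1; 7.46%) and 16 in the arrays numbered 2 and 3 alone, where 43.2% of all genes had none. It was 8 for separation the same way within both batches, a reading added after seeing the data. Leaving out 1 array gave 1 to 12, with 12 without wild type replicate 1 (29.2% of all genes), 4 without knockout replicate 1 (18.9%) and 3 without wild type replicate 3 or knockout replicate 2 or 3 (12.4% to 13.8%). The members that differed between the batches were 10, but 2 without a filter on low signals, where the share of all genes was 12.1%, and 7 to 15 under the other settings.

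The median difference of the members ranged from -0.058 to 0.17 when 1 array was left out. For the members given in every array, Gapdh among them, the alternatives gave 267 values. Of these, 241 kept their direction, 26 changed sign and 0 passed after adjustment. The blocks, the trended and robust variance and the filters on low signals leave a log2 difference as it is. Their values could not change sign, so the count overstates how stable the directions are. Changed signs in the arrays numbered 2 and 3 alone were those of Gbe1 (-0.054), Gapdh (0.15), Ldhb (0.16) and Pygm (0.059). Under median scaling they were those of Pfkfb2 (0.029), Gapdh (0.053), Ldhb (0.077) and Pygm (0.059), after quantile normalization Gapdh (0.017) and Ldhb (0.022), and with the mean of all probe sets Ldhb (0.011). With 1 array left out, Gbe1 ranged from -0.23 to 0.40, Ldha from -0.15 to 0.26, Pfkm from -0.079 to 0.29, Pfkfb2 from -0.18 to 0.026, Gapdh from -0.29 to 0.25, Ldhb from -0.15 to 0.12 and Pygm from -0.21 to 0.19. The cause of these changes was not tested.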
